A study of Mus musculus with 3 samples.

Results

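The respiratory chain and the ATP synthase of mitochondria are built from many nuclear-encoded subunits, and their mRNAs were followed in cells of the immortalized mouse fibroblast line NIH3T3 that overexpress YAP. All genes were taken that a probe set names alone and whose symbol marks a structural subunit: Nduf followed by a, b, c, s or v and a number for complex I, Sdha to Sdhd for complex II, symbols that begin with Uqcr for complex III, with Cox4 to Cox8 for complex IV and with Atp5 and a letter for complex V. These rules found 80 of the 18193 genes measured, 34 in complex I, 4 in complex II, 8 in complex III, 17 in complex IV and 17 in complex V, read by 163 of the 45037 probe sets.

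RNA came from 3 kinds of cells, with 1 array each. In mtYAP cells a mouse Yap carrying the substitution S112A, at a serine that the Hippo pathway kinases LATS1 and LATS2 phosphorylate, was stably expressed from a retrovirus. YAP cells carried wild-type mouse Yap in the same way, and both lines had been selected with puromycin. Control cells are labelled as untransduced, whereas the study's methods also describe cells infected with the vector alone and selected in the same way. By the label, infection and selection cannot be told apart from Yap in the comparisons with control. All were NIH3T3 cells of NIH/Swiss origin, grown with 10% calf serum, and labelled cRNA made from their RNA was hybridized to Affymetrix GeneChip mouse arrays. Values are log2 expression levels, so a difference of 1 is a 2-fold difference and a difference of 0.5 is 1.41-fold. With 1 array per condition there is no spread between replicates, no value has an error, and no test could be run. Each difference compares a pair of arrays, and the control array is shared by the mtYAP and YAP comparisons.

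All 10 fibroblast markers reached a level of 6 on every array, but several stood lower in mtYAP: Pdgfrb read 7.07 in mtYAP, 8.59 in YAP and 9.69 in control, Pdgfra 7.62, 9.67 and 10.03, Thy1 8.28, 9.14 and 9.95, and S100a4 11.66, 12.84 and 13.34. Their part in the results below was not tested. None of the epithelial, endothelial and blood markers reached that level. Of 5 striated muscle markers, 1 (Des) reached it, in its probe set with the highest level. Yap1 stood at 7.89 in mtYAP, 8.06 in YAP and 8.57 in control. Both of its probe sets were lower than in control in the lines labelled as overexpressing, at −0.67 and −0.69 in mtYAP and −0.69 and −0.33 in YAP, so the array does not show the overexpression that the labels give. The introduced Yap was a coding sequence, and whether these probe sets lie within it is not given in the files used here. The names mtYAP, YAP and control below therefore stand for the arrays so labelled, and every direction rests on those labels. A free-text field of the control sample refers to an experiment in another kind of cell, and its other labels name NIH3T3.

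In oxidative phosphorylation, complex I (NADH dehydrogenase) and complex II (succinate dehydrogenase) pass electrons to ubiquinone, complex III (cytochrome bc1) hands them to cytochrome c, and complex IV (cytochrome c oxidase) reduces oxygen. Complexes I, III and IV pump protons across the inner membrane, and complex V, the ATP synthase, lets them flow back to make ATP. A few core subunits carry the catalytic work, and most of the others, called supernumerary, stabilize the complex or help to assemble it. Many promoters of these nuclear genes are known to hold binding motifs of NRF1, of ETS factors such as GABPA, and of YY1.

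Most subunit genes stood within 1.41-fold of control in both lines, with a small excess of lower values. In mtYAP the median difference from control was −0.12 over the 80 genes, with an interquartile range of −0.33 to 0.06, against a median of 0.02 over all genes. Above a difference of 0.5 lay 3 subunit genes (3.75%), against 11.6% of all genes, and below −0.5 lay 11 (13.75%), against 11.5% of all genes. The share below −0.5 was thus near that of the array as a whole, and the share above 0.5 was smaller. Lower values than in control were found for 50 of the 80 genes (62.5%), against 46.5% of all genes. Past a 2-fold difference lay Cox6a2 upward and Uqcrh downward, 1.25% in each direction, against 3.77% and 4.06% of all genes.

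In YAP the median difference from control was −0.08, with an interquartile range of −0.29 to 0.05, where the median of all genes was −0.003. Differences above 0.5 were seen for Cox6a2 and Cox8b, 2.5% of the subunit genes against 6.38% of all genes, and below −0.5 for Ndufb8, Ndufv3 and Cox6b2, 3.75% against 5.36%. Lower values than in control were found for 54 genes (67.5%), against 50.2% of all genes. Cox6a2 was the subunit gene above 1, and none lay below −1, where 1.36% and 1.26% of all genes did.

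Since most of these mRNAs are read at a high level, genes of a similar level are the closer background. A mean level of at least 9 over the arrays was reached by 54 subunit genes and by 1049 genes in all. Among them, 1 subunit gene (1.85%) lay above 0.5 in mtYAP, against 22.1% of genes at that level, and 10 (18.5%) lay below −0.5, against 19.1%. In YAP none lay above 0.5, against 15.3%, and 1 (1.85%), Ndufv3, lay below −0.5, against 7.63%. The medians in mtYAP were −0.19 for the subunit genes and 0.01 for all genes at that level, and in YAP −0.10 and 0.05. Lower than in control were 38 of the 54 (70.4%) in mtYAP, against 48.6% of the background, and 41 (75.9%) in YAP, against 43.1%. These counts rest on the mean of a gene's probe sets. In the probe set of the highest level, Ndufa12, Atp5g1, Uqcrq and Cox5a stood at 0.59, 0.59, 0.55 and 0.52 in mtYAP, and Ndufb6 at 0.42. The background was not recounted in that way. By the means, the subunit genes had a smaller share above 0.5 in both lines than genes of a similar level. Their share below −0.5 was smaller in YAP, and their share below control was larger in both lines.

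**Figure D1:**
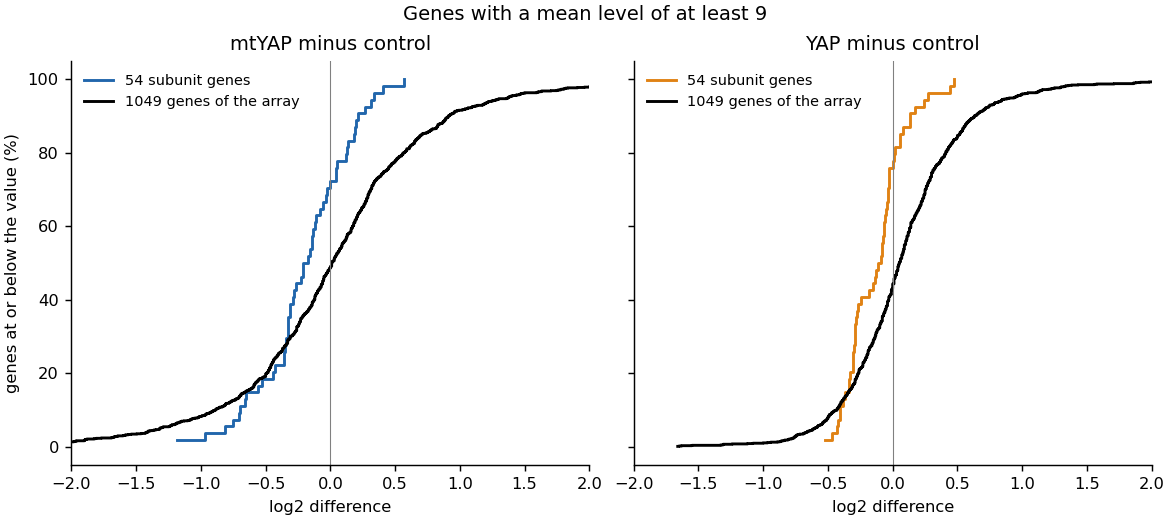
Cumulative share of genes (vertical axis, percent) at or below each log2 difference (horizontal axis, drawn between −2 and 2) in mtYAP minus control on the left and YAP minus control on the right, for 54 subunit genes (coloured) and 1049 genes (black) with a mean level of at least 9. Levels and differences are means over the probe sets of a gene. The coloured curve reaches its top near 0.5 in both panels, while 22.1% and 15.3% of all genes at that level lie above 0.5.

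In complex I, the 34 genes stood a median of −0.12 from control in mtYAP and −0.07 in YAP. Below control were 23 (67.6%) in mtYAP, against 46.5% of all genes, and 25 (73.5%) in YAP, against 50.2%. The 6 core subunits measured, all of them genes of the NADH-oxidizing and ubiquinone-reducing modules, stayed close to control. Ndufv1, which binds NADH, had levels of 10.08 in mtYAP, 10.00 in YAP and 9.95 in control. Ndufv2, an iron-sulphur subunit beside it, read 10.53 in mtYAP, 10.53 in YAP and 10.26 in control. Ndufs1, which holds several iron-sulphur clusters, was level at 9.38 in mtYAP, 9.35 in YAP and 9.38 in control. Nearer to ubiquinone, Ndufs3 read 9.81 in mtYAP, 9.89 in YAP and 9.93 in control, Ndufs7 read 9.755, 9.67 and 9.54, and Ndufs8 read 9.62, 9.56 and 9.655. Of these 3, Ndufs7 stood furthest from control by the means, at 0.215 in mtYAP. For Ndufs8 the dimmest probe set stood at 0.59 in mtYAP, and the others between −0.20 and −0.11.

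The 28 supernumerary genes of complex I ranged from −0.97 to 0.57 in mtYAP, with a median of −0.15. Below control stood 21 of them (75%), against 46.5% of all genes. Ndufb3, a small subunit of the membrane arm, had levels of 8.63 in mtYAP, 9.17 in YAP and 9.60 in control. Its difference was −0.97 in mtYAP, or 0.51 times control, and −0.43 in YAP. Ndufv3, at the NADH end of the complex, read 9.97 in mtYAP, 10.26 in YAP and 10.78 in control, a difference of −0.81 in mtYAP and −0.52 in YAP. Ndufa1, a membrane subunit encoded on the X chromosome, read 11.20 in mtYAP, 11.29 in YAP and 11.76 in control, and Ndufa13, also known as GRIM-19, read 10.86, 10.96 and 11.30. Control was the highest array for all 4 of these genes, and mtYAP the lowest.

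Ndufb8, another subunit of the membrane arm, seemed low as the mean of its probe sets, at −0.775 in mtYAP and −0.58 in YAP, but its probe sets disagreed. The probe set with the higher level read 10.42 in mtYAP, 10.31 in YAP and 10.35 in control. The other read 5.04 in mtYAP, 5.54 in YAP and 6.66 in control, so the difference came from the dimmer one. In the opposite direction stood Ndufb6, a membrane arm subunit with levels of 10.47 in mtYAP, 10.14 in YAP and 9.90 in control, and probe sets that differed by 0.72 and 0.42 in mtYAP. Ndufa12, which lies beside the NADH module, averaged 9.225 in mtYAP, 8.90 in YAP and 9.03 in control, but its probe set of the highest level read 11.25 in mtYAP, 10.74 in YAP and 10.66 in control, a difference of 0.59 in mtYAP. Ndufs4, a subunit needed for complex I stability, averaged 5.81 in mtYAP, 5.69 in YAP and 5.47 in control. It differed by 0.34 in mtYAP and 0.225 in YAP, with probe sets between −0.21 and 0.84 in mtYAP. Its mean was lowered by dim probe sets, and its probe set of the highest level read 8.89 in mtYAP, 8.57 in YAP and 8.43 in control.

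Of the supernumerary subunits not yet named, Ndufa9, which lies near the ubiquinone site, was the highest in mtYAP at 0.18, and Ndufb2, of the membrane arm, the lowest at −0.37. Ndufa4, since assigned to complex IV, read 10.98 in mtYAP, 10.98 in YAP and 11.31 in control, and Ndufa6, beside the matrix arm, read 10.12, 10.53 and 10.45. The others lay between these ends: Ndufa2, Ndufa3, Ndufa5, Ndufa7, Ndufa8, Ndufa10, Ndufb1, Ndufb5, Ndufb7, Ndufb9, Ndufb10, Ndufb11, Ndufc1, Ndufc2 and Ndufs5.

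Several subunits of complex I have near copies in the mouse genome, and their main probe sets name more than 1 gene, so that they were left out of the values above. The probe sets that name Ndufb4 with Ndufb4b and Ndufb4c read 9.93 and 9.78 in mtYAP, 9.97 and 9.88 in YAP, and 9.95 and 9.80 in control. Ndufb4 alone was read by a probe set that stayed under 3 on every array. For Ndufa11 with Ndufa11b the higher probe set read 9.80 in mtYAP, 9.75 in YAP and 9.85 in control, and for Ndufs6 with Ndufs6b the levels were 9.04, 8.98 and 9.07. Ndufs5 with its pseudogene read 10.79 in mtYAP, 10.50 in YAP and 10.65 in control. None of these was more than 0.2 away from control, and which copy gave the signal was not tested.

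**Figure D2:**
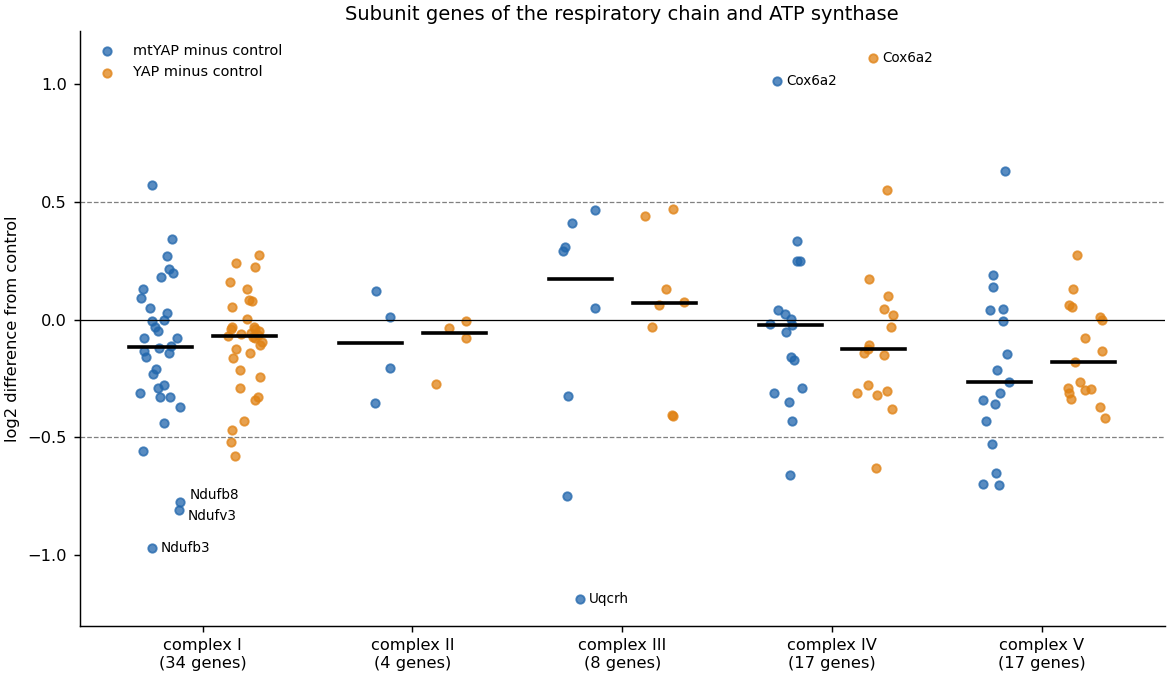
Log2 difference from control (vertical axis) of each of the 80 subunit genes by complex, in mtYAP (blue) and YAP (orange), with the median as a black bar and dashed lines at 0.5 and −0.5; the sideways spread has no meaning. Medians lie between −0.27 and 0.17, and the points farthest from 0 are Uqcrh in mtYAP and Cox6a2 in both lines.

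Complex II, which is also an enzyme of the TCA cycle, differed little. Sdha, the flavoprotein that oxidizes succinate, had levels of 6.215 in mtYAP, 6.415 in YAP and 6.42 in control as the mean of 4 probe sets, and 9.51, 9.80 and 9.78 in the one with the highest level. Sdhb, its iron-sulphur partner, read 9.96 in mtYAP, 9.76 in YAP and 9.84 in control. The membrane anchors Sdhc and Sdhd read 8.91 and 8.22 in mtYAP, 8.99 and 8.17 in YAP, and 9.26 and 8.21 in control. Sdhc stood furthest from control, at −0.355 in mtYAP and −0.275 in YAP, and no gene of this complex passed 0.5.

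In complex III, Uqcrc1, Uqcrc2 and Uqcrfs1 stood above control, and the small subunits on both sides of it. Uqcrc1 and Uqcrc2, the core proteins, read 10.04 and 10.02 in mtYAP, 10.12 and 10.18 in YAP, and 9.99 and 9.71 in control. Uqcrfs1, the Rieske iron-sulphur protein, which takes electrons from ubiquinol, read 9.57 in mtYAP, 9.60 in YAP and 9.16 in control. The 3 genes differed from control by 0.05, 0.31 and 0.41 in mtYAP and by 0.13, 0.47 and 0.44 in YAP, so each stood above control in both lines, and none by more than 0.5.

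Uqcrh, the hinge protein that binds cytochrome c1, was the lowest of all subunit genes in mtYAP. Its levels were 10.57 in mtYAP, 11.35 in YAP and 11.755 in control, a difference of −1.185 in mtYAP, or 0.44 times control, and −0.405 in YAP. Both of its probe sets gave this order, at −1.16 and −1.21 in mtYAP and −0.41 and −0.40 in YAP. Uqcr11, another small subunit, followed at 9.46 in mtYAP, 9.80 in YAP and 10.21 in control. Uqcrb, which lies close to the ubiquinone site, read 10.36 in mtYAP, 10.65 in YAP and 10.68 in control, a difference of −0.325 in mtYAP and −0.03 in YAP.

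The median of complex III, 0.17 in mtYAP and 0.07 in YAP, depends on how probe sets are joined. Uqcr10 and Uqcrq, also small subunits, averaged 6.53 and 6.19 in mtYAP, 6.32 and 5.78 in YAP, and 6.24 and 5.72 in control, with differences of 0.29 and 0.47 in mtYAP, partly from probe sets under a level of 6. In their probe sets of the highest level, Uqcr10 read 9.88 in mtYAP, 9.65 in YAP and 9.97 in control, and Uqcrq read 10.57, 10.15 and 10.02. With the highest probe set of each gene the median of the complex in mtYAP was −0.02, and no direction can be given for the complex as a whole.

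**Figure D3:**
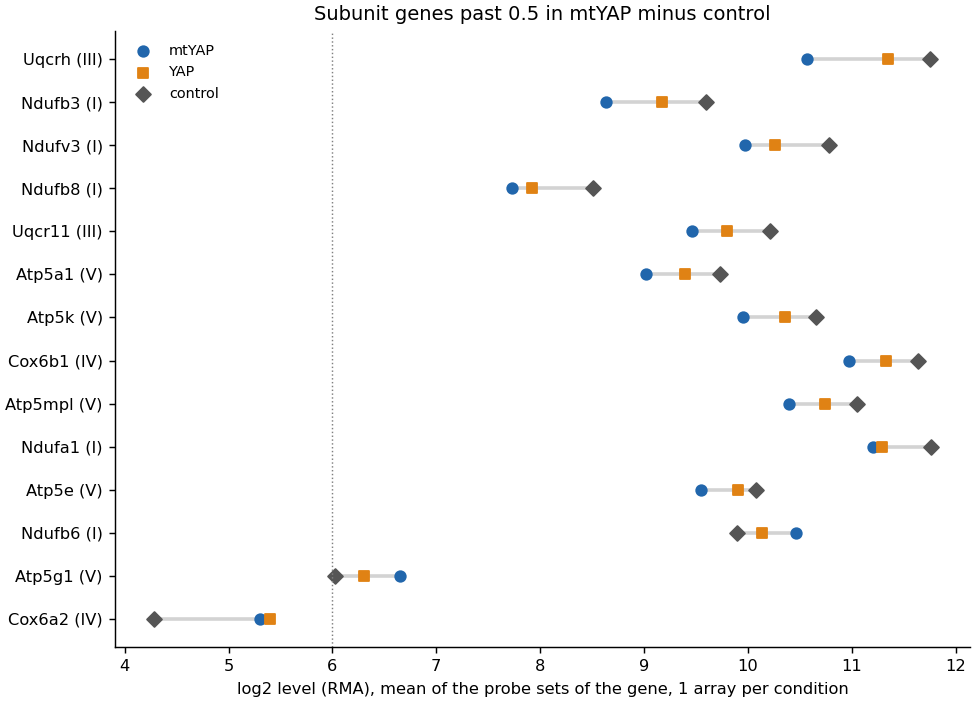
Log2 level (horizontal axis) in mtYAP (circles), YAP (squares) and control (diamonds) of the 14 subunit genes more than 0.5 away from control in mtYAP, with the complex in brackets; a dotted line marks a level of 6. YAP lies between mtYAP and control for 13 of them, the exception being Cox6a2. The genes were chosen by the distance of mtYAP from control, which by itself favours a further array lying between them. For Ndufb8 the order comes from its dimmer probe set. Positions along the axis are not comparable between genes.

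Complex IV had medians of −0.03 in mtYAP and −0.12 in YAP over 17 genes. Of the subunits found in most tissues, Cox6b1, which faces the intermembrane space, was lowest in mtYAP, with levels of 10.975 in mtYAP, 11.325 in YAP and 11.635 in control, and both its probe sets agreed, at −0.69 and −0.63. Cox6c, a small membrane subunit, read 11.15 in mtYAP, 11.12 in YAP and 11.50 in control. Cox5a, which sits on the matrix side, was the highest of these, at 11.72 in mtYAP, 11.56 in YAP and 11.38 in control. Cox4i1, which binds near the catalytic core, read 12.19 in mtYAP, 12.25 in YAP and 12.36 in control. Cox8a averaged 9.16 in mtYAP, 8.81 in YAP and 9.12 in control, lowered by a probe set at a low level, while its 2 probe sets at a high level both stood at −0.26 in mtYAP and at −0.48 and −0.41 in YAP. Cox7a2 read 10.91 in mtYAP, 11.05 in YAP and 11.20 in control. Cox5b, which binds zinc, differed by 0.003 in mtYAP and −0.12 in YAP as the mean of its probe sets. Its dim probe sets stood at 0.25 and 0.21 in mtYAP, and those at a high level between −0.15 and −0.04. Cox7c differed by −0.16 in mtYAP and 0.045 in YAP, at levels under 6. Cox7a2l, a factor that joins complexes III and IV into supercomplexes, read 11.01 in mtYAP, 11.08 in YAP and 11.06 in control.

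Several subunits of complex IV have isoforms made in particular tissues. Of 7 such genes (Cox4i2, Cox6a2, Cox6b2, Cox7a1, Cox7b2, Cox8b and Cox8c), 6 had a mean over their probe sets under the level of 6 on every array, and the testis isoform Cox8c read 6.415 in mtYAP, 6.25 in YAP and 6.39 in control. Cox6a2, the heart and skeletal muscle isoform of subunit VIa, averaged 5.30 in mtYAP, 5.395 in YAP and 4.285 in control, and was the subunit gene with the highest difference in both lines, at 1.015 and 1.11. Its probe sets read 6.30 and 4.30 in mtYAP, 6.31 and 4.48 in YAP, and 5.13 and 3.44 in control, so both were higher in the lines, close to or below the limit of clear measurement. The muscle genes Ckm, Acta1, Myod1 and Myog stayed under 6 on every array, and Des read 5.02 in mtYAP, 4.88 in YAP and 4.67 in control. Cox6a1, the isoform of most tissues, read 12.12 in mtYAP, 11.86 in YAP and 12.14 in control.

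Cox8b, a muscle isoform, and Cox6b2, a testis isoform, were the other genes of complex IV past 0.5 in YAP. Cox8b read 4.00 in mtYAP, 4.30 in YAP and 3.75 in control, and Cox6b2 read 3.43, 3.11 and 3.74. The lung isoform Cox4i2 read 4.33, 4.05 and 4.08, the heart and muscle isoform Cox7a1 2.64, 2.75 and 3.07, and Cox7b2 2.36, 2.48 and 2.38, in the same order of lines. At these levels no size or direction can be relied on. Without the tissue-restricted isoforms no subunit gene lay above 0.5 in YAP.

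Complex V had the lowest median of the 5 complexes in both lines, −0.27 in mtYAP and −0.18 in YAP. Below control stood 12 of its 17 genes (70.6%) in mtYAP, against 46.5% of all genes, and 11 (64.7%) in YAP, against 50.2%. Within the catalytic F1 head the subunits differed from each other. Atp5a1, the alpha subunit, read 9.02 in mtYAP, 9.39 in YAP and 9.73 in control, and its 3 probe sets lay between −0.81 and −0.53 in mtYAP. Atp5b, the beta subunit that carries the catalytic sites, read 12.33 in mtYAP, 12.19 in YAP and 12.19 in control. Atp5c1, the gamma subunit that forms the rotating shaft, read 8.955 in mtYAP, 9.045 in YAP and 8.915 in control. Atp5d, the delta subunit, read 11.35 in mtYAP, 11.365 in YAP and 11.305 in control, and Atp5e, the epsilon subunit, read 9.55, 9.90 and 10.08, a difference of −0.53 in mtYAP. Thus 2 of these 5 genes (40%) were below −0.5 in mtYAP, against 11.5% of all genes. Among genes at a mean level of at least 9 the share was 19.1%. The others of the 5 stood within 0.14 of control, and so few genes are too few for a share to be read.

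Small subunits of the membrane part were lower than in control. Atp5k (subunit e) read 9.95 in mtYAP, 10.36 in YAP and 10.65 in control, and each of its 3 probe sets lay at or below −0.58 in mtYAP. Atp5mpl, a short proteolipid bound to the complex, read 10.40 in mtYAP, 10.74 in YAP and 11.05 in control. Atp5l (subunit g) read 10.57, 10.63 and 11.00, Atp5j2 (subunit f) 9.29, 9.29 and 9.55, and Atp5md, which holds ATP synthase dimers together, 9.27, 9.16 and 9.58. The peripheral stalk genes, which keep the F1 head from turning, differed by −0.36 (Atp5j), −0.215 (Atp5h), −0.145 (Atp5o) and 0.19 (Atp5pb) in mtYAP. Atp5pb read 11.195 in mtYAP, 11.015 in YAP and 11.005 in control.

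Subunit c, of which the rotor ring is made, is encoded by 3 genes whose mature proteins are the same, and they did not run together. Atp5g1 read 6.655 in mtYAP, 6.30 in YAP and 6.025 in control, with its probe set of the highest level at 10.16, 9.64 and 9.57. Atp5g3 read 12.25 in mtYAP, 12.29 in YAP and 12.59 in control. Atp5g2 averaged 6.22 in mtYAP, 6.28 in YAP and 6.23 in control, and its highest probe set read 11.47 in mtYAP, 11.57 in YAP and 11.39 in control. The differences in mtYAP were 0.63 for Atp5g1, −0.01 for Atp5g2 and −0.34 for Atp5g3.

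**Figure D4:**
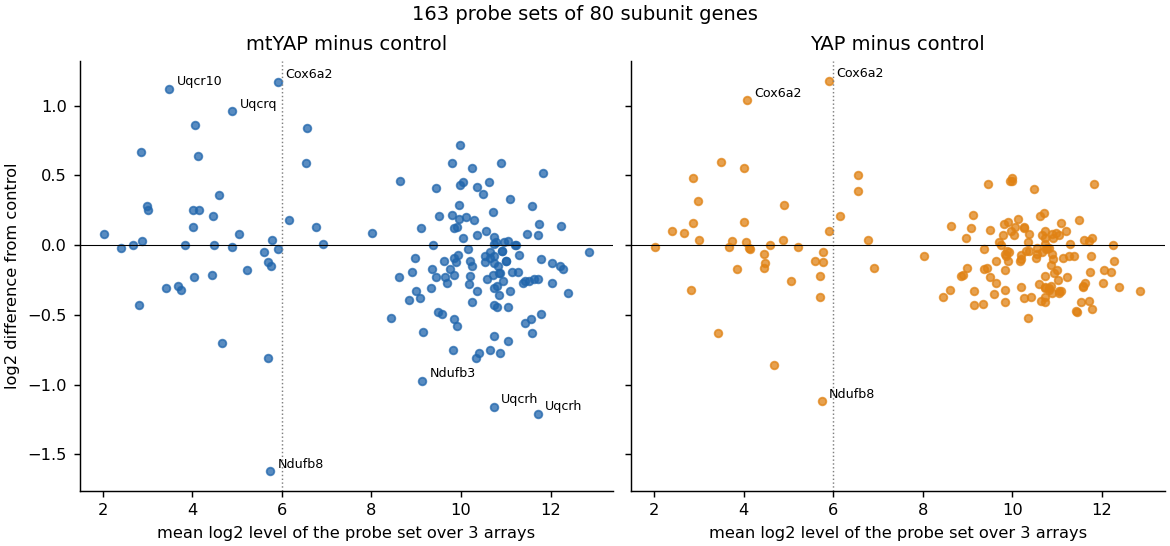
Log2 difference from control (vertical axis) against the mean log2 level over the 3 arrays (horizontal axis) of the 163 probe sets of subunit genes, in mtYAP on the left and YAP on the right, with a dotted line at a level of 6 and names at differences past 0.95 in either direction. Of the probe sets that are named, those of Ndufb3 and Uqcrh lie to the right of the dotted line and all others to its left.

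Of the 80 genes, 48 were read by several probe sets, and in 15 of these some probe sets stood above control and others below it in mtYAP. The range between the probe sets of a gene had a median of 0.245 in mtYAP and exceeded 1 in 4 genes (Ndufa12, Ndufb8, Ndufs4 and Uqcr10).

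Set directly against YAP, mtYAP had a median difference of −0.065 over the 80 genes, where that of all genes was 0.025, and 50 of them (62.5%) were below 0, against 44.8% of all genes. Below −0.5 were Uqcrh at −0.78 and Ndufb3 at −0.54, 2.5% of the subunit genes against 6.57% of all genes, and none lay above 0.5, where 5.45% of all genes did. Next stood Ndufa6 at −0.41 and Atp5k at −0.41, and at the other end Uqcrq at 0.405 and Atp5g1 at 0.355. By complex, the medians of mtYAP minus YAP were −0.065, −0.02, −0.12, −0.06 and −0.06 for complexes I to V.

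The promoters of the members were looked up in the RefSeq table of GRCm38.p6, which holds 250 bases before and 50 after the start, for 66 of the 80 genes and for 27025 genes in all. Motifs were searched as letters on both strands, without regard to overlap between motifs. The 10-letter NRF1 motif was found in 15 of the 66 (22.7%), against 5.19% of all genes, the ETS letters CCGGAAG in 17 (25.8%), against 9.93%, and the YY1 letters AAGATGGC in 9 (13.6%), against 3.19%. The ERRA letters TNAAGGTCA were in 3 (4.55%), against 1.43%. The E-box CACGTG, which MYC binds, was in 6 (9.09%), against 8.09%, and the TEAD letters GGAATG in 7 (10.6%), against 16.6%. The share of all genes was taken without regard to their level on the arrays. A background of promoters of genes at a similar level was not counted. A match is a description of the sequence and not a binding site. Members that hold the ETS letters had medians of −0.31 (mtYAP) and −0.28 (YAP) over 17 genes, and those without them −0.08 and −0.06 (49 genes). For NRF1 the medians with the letters were −0.145 and −0.06, and without them −0.12 and −0.11. For YY1 they were −0.23 and −0.16 with the letters (9 genes), and −0.12 and −0.08 without. The E-box gave −0.002 and −0.03 with it (6 genes), and −0.13 and −0.08 without. The TEAD letters gave 0.045 and −0.04 with them (7 genes), and −0.14 and −0.09 without. The ERRA letters gave 0.01 and −0.035 with them (3 genes), and −0.134 and −0.08 without. These medians describe small, overlapping sets of members, and their differences were not tested.

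Of 9 members below −0.5 in mtYAP with a promoter in the table, 5 hold the ETS letters (Uqcrh, Uqcr11, Cox6b1, Atp5e and Atp5k). Over all members with a promoter 17 of 66 (25.8%) hold them, and 9.93% of all genes. The 9 include Ndufb8, which lacks the letters and stood at 0.07 in its probe set of the highest level. Of the 2 above 0.5, Ndufb6 holds them. These genes were picked by the same differences as the ETS medians above, and no excess of the letters was tested. Stretches before the start are shown for the members in which the letters lie there, to let the sites be compared; in Atp5k they lie after the start. Capitals mark CCGGAAG or its reverse complement, and each sequence runs 5′ to 3′ on the strand of the gene, in GRCm38.p6.
Uqcrh, chr4:116075071-116075130, minus strand: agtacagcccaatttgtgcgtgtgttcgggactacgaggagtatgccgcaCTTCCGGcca
Uqcr11, chr10:80406855-80406914, minus strand: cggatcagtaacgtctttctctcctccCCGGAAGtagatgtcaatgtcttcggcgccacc
Cox6b1, chr7:30626115-30626174, minus strand: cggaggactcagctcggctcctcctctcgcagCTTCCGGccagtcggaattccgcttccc
Atp5e, chr2:174464171-174464230, minus strand: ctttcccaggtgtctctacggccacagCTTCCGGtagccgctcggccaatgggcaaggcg
Ndufb6, chr4:40279621-40279671, minus strand: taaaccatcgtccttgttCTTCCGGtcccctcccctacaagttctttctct
The letters begin 10 bases before the start in Uqcrh, 28 in Cox6b1, 66 in Uqcr11, 102 in Atp5e and 232 in Ndufb6.

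Genes that assemble the complexes stood on both sides of control. Of 47 assembly factors measured, 8 (17.0%) lay above 0.5 in mtYAP, against 11.6% of all genes, and 8 below −0.5, against 11.5%, with a median of 0.08. In YAP 5 (10.6%) lay above 0.5, against 6.38% of all genes, and 2 (4.26%) below −0.5, against 5.36%, with a median of 0.02. For complex I, Ndufaf4 read 8.10 in mtYAP, 7.56 in YAP and 7.03 in control, Ndufaf6 read 7.27, 6.89 and 6.28, and Ndufaf5, which modifies the subunit Ndufs7, read 7.47, 6.95 and 6.55. Tmem126b, of the complex that builds the membrane arm, was at −1.11 in mtYAP, against −0.10 in YAP, under a level of 6 on every array. Sdhaf4, an assembly factor of complex II, read 8.32 in mtYAP, 8.81 in YAP and 9.78 in control. Uqcc3, of complex III, stood −0.97 from control in mtYAP and −0.35 in YAP, and Sco2, which delivers copper to complex IV, read 6.75, 7.25 and 7.60. Lrpprc, which stabilizes mitochondrial mRNAs and is listed here with complex IV, read 9.78 in mtYAP, 9.68 in YAP and 9.10 in control.

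Cycs, which encodes the electron carrier cytochrome c, read 8.96 in mtYAP, 8.27 in YAP and 8.33 in control, with 4 probe sets between −0.14 and 0.96 in mtYAP, and Cyc1, the cytochrome c1 of complex III, read 10.23, 10.00 and 9.76. Of 12 genes of coenzyme Q synthesis, 3 (25%, against 11.6% of all genes) lay above 0.5 in mtYAP (Coq5 at 0.775, Coq10b at 0.70 and Coq2 at 0.61) and none in YAP, against 6.38%, with medians of 0.16 and 0.05. Of 13 TCA cycle enzymes, none lay above 0.5 in either line, and Suclg2, a subunit of succinyl-CoA ligase, lay below −0.5 in mtYAP at −1.015 (1 of 13, 7.69%, against 11.5% of all genes), with medians of −0.003 and 0.003. ND5, the mitochondrially encoded subunit of complex I that a probe set names, read 12.30 in mtYAP, 12.32 in YAP and 12.89 in control.

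Among regulators, Ppargc1a, which encodes the coactivator PGC-1 alpha, a known driver of genes of oxidative phosphorylation, was far lower in both lines. Its levels were 6.28 in mtYAP, 6.10 in YAP and 8.54 in control, differences of −2.26 and −2.44, and its 5 probe sets lay between −2.59 and −1.98 in mtYAP and between −2.64 and −2.04 in YAP. Its relatives differed from it and from each other: Ppargc1b had differences of −0.38 (mtYAP) and −0.48 (YAP), and Pprc1, which encodes a coactivator of the same family, at 0.67 and 0.60. Nrf1 differed by 0.195 and 0.08, with 4 probe sets between −0.66 and 1.03 in mtYAP. Gabpa differed by 0.07 and 0.085, and Gabpb1, a partner of GABPA, by 0.915 and 0.58. Gabpb2, listed beside it, went the other way, at −0.51 and −0.13, with 4 probe sets between −0.98 and 0.19 in mtYAP. Esrra, a nuclear receptor that works with PGC-1 alpha, differed by −0.29 in both lines. Of 12 genes listed for copying or transcribing mitochondrial DNA, 10 stood above control in mtYAP (median 0.22) and 9 in YAP (median 0.18). Below control were 2 (16.7%) in mtYAP, against 46.5% of all genes, and 3 (25%) in YAP, against 50.2%. Above 0.5 lay 2 (16.7%) in mtYAP, against 11.6% of all genes, and 1 (8.33%) in YAP, against 6.38%. Tfam, which packages mitochondrial DNA, read 7.435 in mtYAP, 6.96 in YAP and 6.605 in control, and Tfb1m, a methyltransferase of mitochondrial ribosomal RNA, read 6.70, 6.60 and 5.78.

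**Figure D5:**
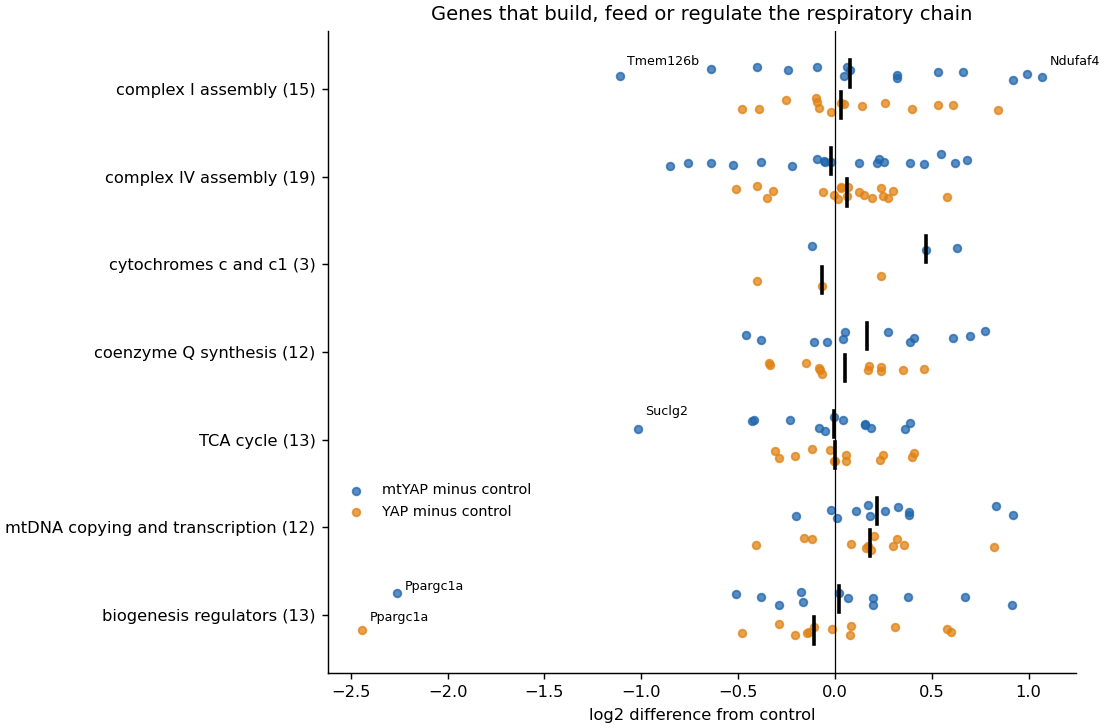
Genes of 7 lists around the respiratory chain by their log2 difference (horizontal axis) in mtYAP (blue) and YAP (orange) against control, with the number of genes in brackets, the median as a black bar and names at differences past 1. Ppargc1a lies at −2.26 and −2.44, apart from the other regulators, and the medians of mtDNA copying and transcription are 0.22 and 0.18.

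As another set of mitochondrial proteins encoded in the nucleus, 76 mitochondrial ribosomal protein genes stood a median of 0.30 above control in mtYAP and 0.13 in YAP, and 17 of them lay above 0.5 in mtYAP (22.4%, against 11.6% of all genes) and 2 below −0.5 (2.63%, against 11.5%). Of the 76 genes 70 reached a level of 6, against 7129 of 18193 genes in all, and 11 had a mean level of at least 9. Among all genes at that mean level 22.1% lay above 0.5 in mtYAP and 19.1% below −0.5. A background at the level of these genes was not taken, nor for the lists above. For 42 cytosolic ribosomal protein genes, whose mRNAs are short and abundant like many of the subunit mRNAs, the medians were 0.11 and 0.12, with 4 (9.52%) above 0.5 in mtYAP and none below −0.5. The subunit genes, with medians of −0.12 and −0.08, lay below both sets on the same arrays, and whether they differ beyond error could not be tested.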

How the data were processed

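The data are 1 array each of mtYAP, YAP and control cells. The authors hybridized biotin-labelled cRNA to Affymetrix GeneChip mouse arrays, subtracted background and normalized with robust multiarray analysis (RMA), run in R. The deposited values are log2 levels per probe set, rounded to 2 decimals, and were used as they stand. RMA and affy are the tools in the submitters' processing notes. Their versions, like the set of arrays normalized together, are not given in the labels or methods. This method pulls low levels together, so differences of dim probe sets are uncertain, and a level of 6 was taken as clearly measured. The number of arrays limits the precision.

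Of 45037 probe sets, 34945 name 1 gene in the platform annotation, 932 several and 9160 none, and the first kind was used. All 80 subunit symbols were found unchanged in RefSeq GRCm38.p6. The levels of a gene's probe sets were averaged, and differences were taken as mtYAP minus control, YAP minus control and mtYAP minus YAP. Genes were counted past 0.5 and 1 in each direction beside the same counts over all genes. Values in every array are given for the 3 highest and 3 lowest genes of a complex in mtYAP, the 2 highest and 2 lowest in YAP, core subunits, isoforms and genes whose probe sets differ by over 1, and for up to 3 genes of a list in each direction, with a few more that show a list's range, chosen after their values were seen. Ndufa4 and Cox7a2l were kept in the complex of their symbol. Cox7b is not analysed here. The members and lists were chosen with earlier results of these data known. The arithmetic was tested on simulated data with planted differences. Alternatives were other ways to join probe sets, a level limit, leaving out tissue-restricted isoforms, and removal of the median difference or of a loess on level (span 0.3). Python 3.11.15 with numpy 2.4.6, pandas 2.3.3, statsmodels 0.14.6 and matplotlib 3.10.9 was used.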

Additional observations from a re-analysis of the deposited data

How the results depend on the processing

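With single arrays no difference has an error. The median range between the probe sets of a gene, about 0.25 in mtYAP minus control, is disagreement within a pair of arrays, and smaller differences lie within it. It does not measure the spread between cultures or arrays, so larger differences cannot be called resolved either. No paired analysis was possible because each condition has 1 array and no test was run. Against control, the medians over all subunits and of complexes I, II, IV and V stayed below 0 in both lines under every alternative. For complex IV in mtYAP minus control the median was −0.025 in the main setting. It was −0.005 without probe sets of the suffixes _s, _x and _a, too near 0 for a direction to be read. With the probe set of the highest mean level for each gene, the median of complex III in mtYAP minus control was −0.02 and that of complex II in mtYAP minus YAP −0.125, 5 genes lay above 0.5 in mtYAP minus control and 2 in mtYAP minus YAP, and Ndufb8 turned to 0.07 in mtYAP minus control. Without probe sets whose names carry the suffix _s, _x or _a, 64 genes were left. Complex III then had a median of 0.015 in mtYAP minus control, where 2 genes lay above 1 and 2 below −1. In YAP minus control 1 gene lay below −1, and in mtYAP minus YAP 1 lay above 0.5. With the 70 genes at a level of 6 or more, and likewise with the 73 genes other than tissue-restricted isoforms, 0 genes lay above 1 in mtYAP minus control, 0 above 0.5 in YAP minus control and 0 above 1. With those 70 genes, complex IV had a median of 0.078 in mtYAP minus YAP. After removal of the median difference of all genes, 0 genes lay above 1 in mtYAP minus control. With the 163 probe sets counted singly, complexes II and III had medians of −0.23 and 0.025 in mtYAP minus control, where 13 lay above 0.5, 20 below −0.5, 2 above 1 and 3 below −1. In YAP minus control 4 probe sets then lay above 0.5, 2 above 1 and 1 below −1, and in mtYAP minus YAP 5 lay above 0.5. An alternative chosen after seeing the data averaged the probe sets with a mean level of at least 6 (71 genes): complexes III and IV had medians of −0.02 and −0.14 in mtYAP minus control, with 0 genes above 1, YAP minus control had 0 above 0.5, 0 above 1 and 1 below −0.5, mtYAP minus YAP had 1 above 0.5, and Ndufb8 again turned, to 0.07. Probe sets of several genes (82 genes when kept) and a loess on level moved no median by more than 0.1 and no count by more than 1.5 times.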
